A study of Homo sapiens with 4 samples.

Results

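The VEGF ligands and receptors were followed after METTL14 knockdown in the MYCN-amplified human neuroblastoma cell line SK-N-BE(2). The group held 8 genes, taken by symbol from the 60671 genes of the count table: the ligands VEGFA, VEGFB, VEGFC, VEGFD and PGF, and the receptors FLT1, KDR and FLT4. These genes were chosen by family name after their fold changes between shMETTL14 and shNC were known, so the differences are given as a description, without a test. Where a threshold is mentioned for them, it is that of the fit across all genes and is not read as a test of these genes. The study compared 2 libraries of cells carrying a control hairpin (shNC) with 2 libraries of cells carrying a hairpin against METTL14 (shMETTL14). It asked which transcripts depend on METTL14, a subunit of the m6A methyltransferase. Per the methods of the study, the hairpins were delivered by a pLKO.1 lentivirus and the cells were selected with puromycin into stable lines. The labels do not say which METTL14 hairpin was used, nor give the time after infection.

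VEGF proteins are secreted dimers that act on tyrosine kinase receptors, best known on endothelial cells, where they drive blood and lymphatic vessel growth. VEGFA binds FLT1 and KDR, PGF and VEGFB bind FLT1, and VEGFC and VEGFD bind FLT4 and, once cleaved, also KDR. Neuropilins act as co-receptors, and neuroblastoma cells are known to secrete VEGF ligands.

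Depth was even, with between 18925786 and 19886214 reads counted in genes per library, and 16309 genes were expressed highly enough to test. METTL14 itself had 753 and 754 counts in shNC but 303 and 321 in shMETTL14, which is 41.7% of the control level. This fall passed the edgeR test (log2 fold change -1.26, SE 0.0832, adjusted p 3.6e-11). All 12 neuroblastoma markers examined, among them HAND2 and MYCN, had at least 10 counts in every library, and their summed level was between 6059 and 6211 CPM in shNC and between 5971 and 6026 CPM in shMETTL14, where CPM is counts per 1000000 after scaling. Of 10 endothelial markers, only VWF and EMCN did, and PECAM1, CLDN5 and ROBO4 had at most 3 counts in any library.

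VEGFC and VEGFD, which share receptors, differed in opposite directions between the groups, and the bases before their transcription starts are shown because the starts also differ in composition. The sequences are the 250 bases upstream of the RefSeq start (GRCh38.p14), on the minus strand for both genes: chr4:176792923-176793172 for VEGFC and chrX:15384414-15384663 for VEGFD. Capitals mark the motif GGGCGG, the GC box read by SP1 family factors, on either strand.
VEGFC: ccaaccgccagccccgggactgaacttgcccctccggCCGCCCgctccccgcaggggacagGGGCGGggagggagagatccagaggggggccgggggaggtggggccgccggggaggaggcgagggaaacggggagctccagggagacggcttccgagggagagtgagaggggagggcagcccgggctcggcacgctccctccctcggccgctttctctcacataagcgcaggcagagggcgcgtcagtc
VEGFD: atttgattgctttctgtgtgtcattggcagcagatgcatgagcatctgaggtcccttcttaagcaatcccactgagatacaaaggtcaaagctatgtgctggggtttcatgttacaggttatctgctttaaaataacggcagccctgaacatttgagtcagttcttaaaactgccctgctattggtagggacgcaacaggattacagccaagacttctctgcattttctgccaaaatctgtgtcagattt

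The VEGFC window held 74.0% G and C and 2 copies of GGGCGG, whereas the VEGFD window held 43.2% and 0 copies. Over the 35116 promoters of the table the median was 58.0%, with 18.6% of promoters lower than VEGFD and 87.7% lower than VEGFC. GGGCGG on either strand was present in 42.6% of them. Of the members, 6 had an entry, and VEGFA and FLT4 had none, so their promoters were not searched. The windows of VEGFB, PGF, FLT1 and KDR held between 2 and 6 copies. CACGTG, the E-box read by MYC proteins, and ACGTG, which is also contained in CACGTG, were searched on both strands. ACGTG is a form of the core of the HIF site, and other forms of that core were not searched. CACGTG and ACGTG were found in 0 of the 7 windows of members, against 6.34% and 18.5% of all promoters. These matches describe the letters only, and no binding was measured.

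The methyltransferase complex that includes METTL14 places m6A within a short consensus of which GGACT is a common form. The copies of this motif in the longest coding transcripts of VEGFC and VEGFD (GENCODE 29) are given with 8 bases on each side and GGACT in capitals. Positions are counted from the transcript start.
VEGFC, coding sequence, position 519: tcgagtccGGACTcgacctct
VEGFC, 3′ UTR, position 1829: acagaaatGGACTggagctca
VEGFD, coding sequence, position 610: cactctgaGGACTggaagctg
VEGFD, coding sequence, position 661: accagtatGGACTctcgctca

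Both transcripts thus carried 2 copies, at 0.969 and 0.982 per kilobase, close to the median of 0.927 over 12788 tested coding genes (quartiles 0.571 and 1.38). Of these genes, 92.5% had at least 1 copy. PGF had 0 copies, VEGFB 1, VEGFA 3, FLT4 6, KDR 7 and FLT1 9. Other forms of the consensus were not counted, and methylation was not measured in these libraries. A link between these copies and the fold changes was not tested.

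The levels of the ligands were considered first. Levels between genes are compared as FPKM, that is, per length of the longest coding transcript. In the shNC libraries the order was VEGFA (37.8 ± 0.14 FPKM, SD, n = 2), VEGFB (20.6 ± 1.76 FPKM), VEGFD (9.65 ± 0.895 FPKM), PGF (6.13 ± 0.643 FPKM) and VEGFC (2.33 ± 0.0661 FPKM), and no neighbours in it overlapped. In the shMETTL14 libraries it was VEGFA (31.6 ± 1.35 FPKM), VEGFB (21.5 ± 2.66 FPKM), PGF (7.75 ± 0.7 FPKM), VEGFC (4.79 ± 0.224 FPKM) and VEGFD (0.987 ± 0.191 FPKM). VEGFD thus moved from the third place to the last of the ligands. The order of VEGFA and VEGFB, and that of PGF and VEGFC, depends on the length used, as does the lead of VEGFA over VEGFD. With the union of all annotated exons, 14431 bases for VEGFA and 1545 for VEGFB, the shNC levels were 9.27 and 18.4 FPKM. VEGFD stood at 9.13 FPKM in shNC with that length, close to VEGFA. With that length PGF no longer stood above VEGFC, at 1.98 and 1.99 FPKM in shNC and 2.5 and 4.09 FPKM in shMETTL14.

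**Figure D1:**
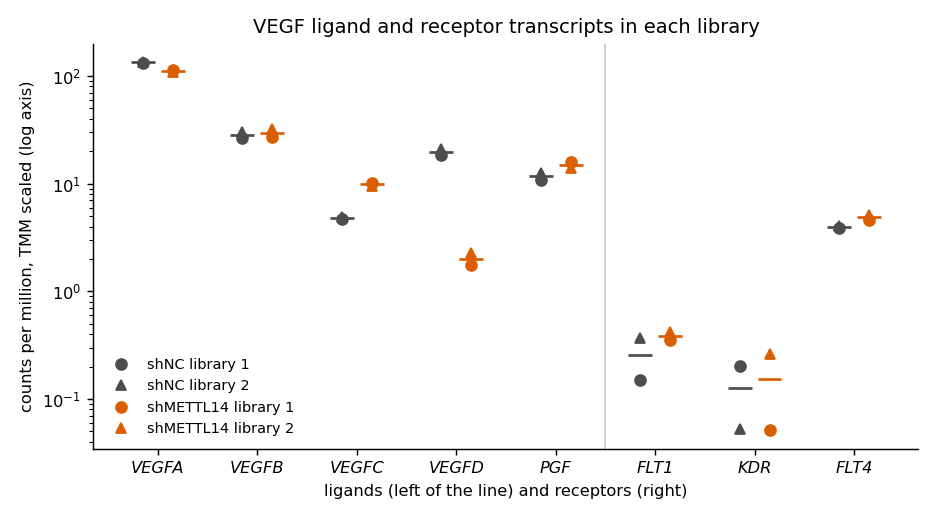
CPM after TMM scaling (log axis) of the 8 VEGF genes in each of the 4 libraries; grey marks are shNC, orange marks shMETTL14, circles library 1, triangles library 2, and bars the group means. VEGFD lies near 20 CPM in shNC and near 2 CPM in shMETTL14, VEGFC moves the other way, and FLT1 and KDR stay below 0.5 CPM in every library.

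VEGFD (ENSG00000165197) encodes a ligand of FLT4 known for lymphatic vessel growth. The gene lies on the minus strand of chromosome X from 15345591 to 15384376 (GENCODE 29, GRCh38). It overlaps no other gene of that annotation among those in the count table. VEGFD had 366 and 401 counts in shNC but only 34 and 44 in shMETTL14. Both shMETTL14 libraries lay far below both controls. The mean level went from 19.7 ± 1.82 CPM to 2.01 ± 0.389 CPM (SD, n = 2 each), or 10.2% of the control. This is a log2 fold change of -3.28 (SE 0.156), and 28 of the 16309 tested genes had a lower value. Because the cells were sequenced in bulk, fewer cells making VEGFD and less VEGFD RNA per cell cannot be told apart.

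VEGFC (ENSG00000150630), the closest relative of VEGFD and likewise a ligand of FLT4, lies on the minus strand of chromosome 4 from 176683538 to 176792727. A noncoding gene on the opposite strand, AC093801.1, overlaps it but shares no exon base. VEGFC counts were 94 in each shNC library and 200 and 184 in the shMETTL14 libraries, so every shMETTL14 library was above the controls. Mean levels were 4.81 ± 0.136 CPM in shNC and 9.89 ± 0.462 CPM (SD, n = 2 each), a 2.05-fold difference with a log2 fold change of 1.04 (SE 0.145).

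Together, the FLT4 ligands were lower. VEGFC plus VEGFD came to 11.3 and 12.7 FPKM in shNC and 5.8 and 5.75 FPKM in shMETTL14. The main contributor also changed: VEGFD made up 79.8% and 81.2% of this sum in shNC but 14.7% and 19.5% in shMETTL14. Per library, VEGFC counts exceeded VEGFD counts by 5.88-fold and 4.18-fold after knockdown, where VEGFD had exceeded VEGFC by 3.89-fold and 4.27-fold in the controls.

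**Figure D2:**
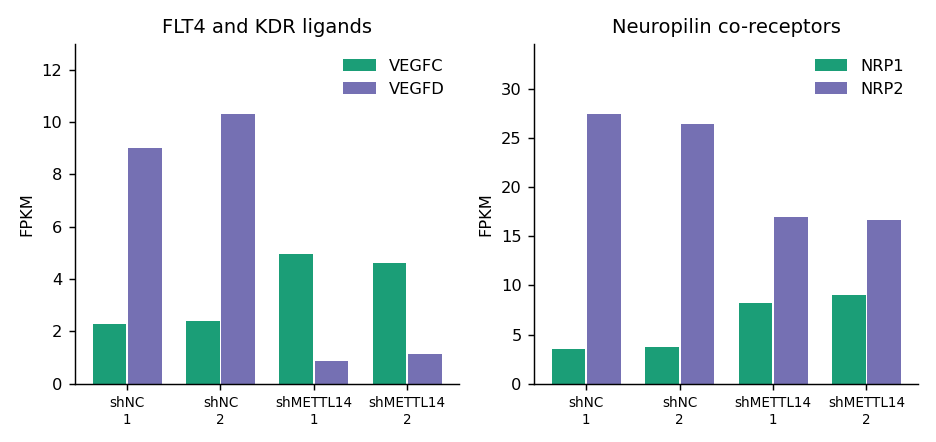
FPKM per library of the ligands VEGFC and VEGFD (left) and of the co-receptors NRP1 and NRP2 (right), 1 bar per gene and library. VEGFD is the higher ligand in both shNC libraries and VEGFC in both shMETTL14 libraries, whereas NRP2 stays above NRP1 in all 4 libraries while their ratio narrows from a mean of 7.42 to 1.96.

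VEGFA (ENSG00000112715), the main driver of blood vessel growth and a target of hypoxia-inducible factors, maps to chromosome 6 (43770184 to 43786487, plus strand). An antisense gene, AL136131.3, shares 188 of its exon bases (1.3%). VEGFA counts were 2659 and 2568 in shNC and 2254 and 2086 in shMETTL14. The shMETTL14 libraries lay below the controls, but the difference was small: 134 ± 0.496 CPM against 112 ± 4.76 CPM (SD, n = 2 each), 83.5% of the control level, with a log2 fold change of -0.26 (SE 0.0455). Of all tested genes, 29.6% had a lower value.

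PGF (ENSG00000119630), placental growth factor, binds FLT1 and lies on the minus strand of chromosome 14 from 74941834 to 74955784. Its counts were 218 and 243 in shNC and 311 and 269 in shMETTL14. The groups did not overlap, at 11.8 ± 1.24 CPM and 14.9 ± 1.35 CPM (SD, n = 2 each), and the log2 fold change was 0.34 (SE 0.114). The value was 0.23 without shNC library 1 and 0.25 without shMETTL14 library 1, and was no longer past the threshold in either fit.

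VEGFB (ENSG00000173511), another FLT1 ligand, maps to chromosome 11 (64234538 to 64238793, plus strand). Its counts were 531 and 576 in shNC and 529 and 620 in shMETTL14, so the groups overlapped. At 28.4 ± 2.43 CPM and 29.6 ± 3.68 CPM (SD, n = 2 each), the log2 fold change of 0.06 (SE 0.09) was smaller than the spread between replicates.

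Summed over the genes, the receptors were expressed far less than the ligands, although per transcript length FLT4 overlapped with VEGFD in the shMETTL14 libraries. FLT4 (ENSG00000037280), the receptor of VEGFC and VEGFD, lies on the minus strand of chromosome 5 from 180601506 to 180649624. It had 78 counts in each shNC library and 90 and 99 in the shMETTL14 libraries, which lay slightly above the controls. Mean levels were 3.99 ± 0.113 CPM in shNC and 4.87 ± 0.387 CPM (SD, n = 2 each), and the log2 fold change of 0.29 (SE 0.185) did not pass the threshold. FLT4 made up between 89.6% and 93.0% of the summed FPKM of the 3 receptors. In the shMETTL14 libraries FLT4 (0.785 and 0.878 FPKM) overlapped with VEGFD (0.852 and 1.12 FPKM), whereas in shNC VEGFD was far above its receptor. That overlap depends on the length used. With the union of exons the shMETTL14 means were 0.55 FPKM for FLT4 and 0.934 FPKM for VEGFD.

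FLT1 (ENSG00000102755; minus strand of chromosome 13, from 28300344 to 28495145) and KDR (ENSG00000128052; minus strand of chromosome 4, from 55078259 to 55125595) encode the receptors through which VEGFA acts on endothelial cells. FLT1 had 3 and 7 counts in shNC and 7 and 8 in shMETTL14. KDR had 4 and 1 counts in shNC and 1 and 5 in shMETTL14. Both were too weakly expressed to test, the groups overlapped, and a difference was not detectable at this depth. KDR overlaps the antisense gene AC111194.2 but shares no exon base with it. FLT1 and KDR overlapped each other in the shNC libraries (0.0212 and 0.0515 FPKM against 0.0331 and 0.00862 FPKM). Summed over the receptors the level was 0.739 ± 0.0234 FPKM in shNC and 0.912 ± 0.0963 FPKM in shMETTL14 (SD, n = 2 each), against 76.5 ± 3.51 and 66.6 ± 0.584 FPKM for the ligands.

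Of the 8 genes, 6 passed the filter on low counts. In the fit across all genes 4 of these had an adjusted p under 0.05, VEGFC and PGF higher and VEGFA and VEGFD lower, where 52.5% of all tested genes did (27.2% higher and 25.3% lower). VEGFC and VEGFD also differed by at least 2-fold, as did 8.79% of all tested genes with such a p. The groups did not overlap in 5 of the 6, against 75.5% of all tested genes. Since the genes were picked with this contrast known, nothing is read from these counts. The neighbouring lists were also chosen with results known, and their counts stand against the same shares of all tested genes.

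**Figure D3:**
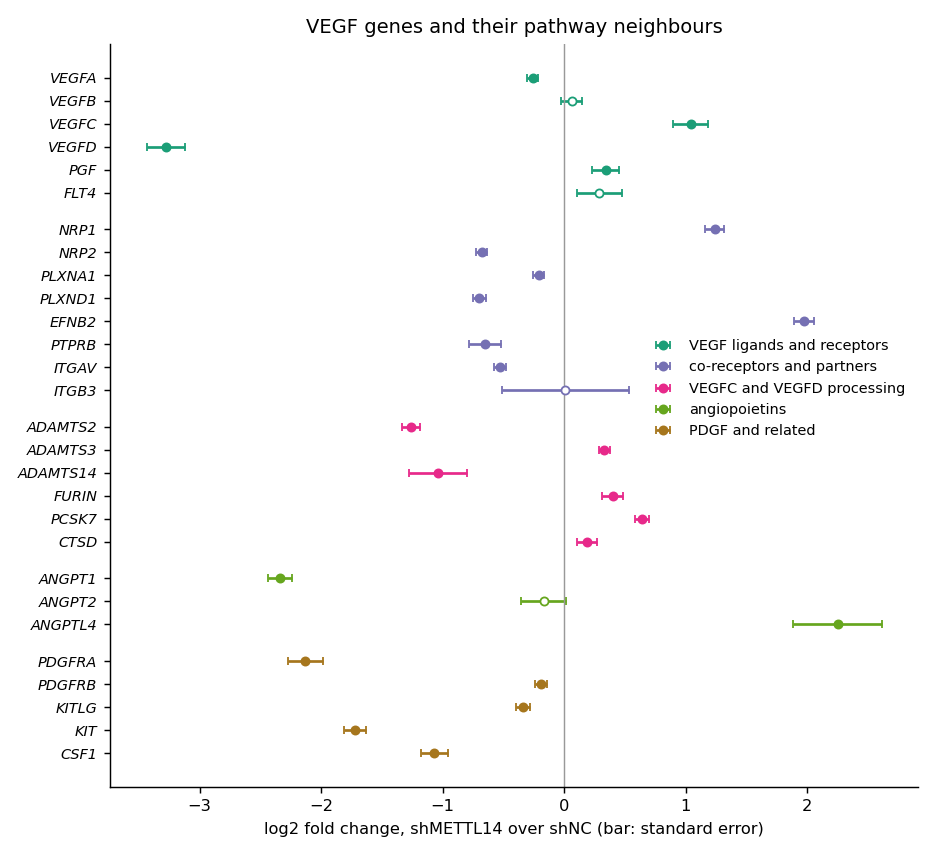
Log2 fold change (shMETTL14 over shNC, bars show the standard error) of each tested VEGF gene and of tested genes from 4 neighbouring lists; filled points had an adjusted p under 0.05 in the edgeR fit across all genes and open points did not. VEGFD is the lowest value shown at -3.28 and ANGPTL4 the highest at 2.25.

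Genes whose pattern was most like that of VEGFA and VEGFD were sought among 11424 genes with a symbol and a mean log2 CPM of at least 2, by the root mean square difference of centred log2 CPM over the 4 libraries. For VEGFD the closest was GFRA3, a receptor of the GDNF family, at 0.163, followed by MEGF6 (0.275), CMBL (0.314), NDUFA4L2 (0.331) and BEND4 (0.343). GFRA3 counts were 856 and 853 in shNC and 99 and 96 in shMETTL14. For VEGFA the closest were AARS1 (0.00879), MTREX (0.01), ANAPC1 (0.0104), NT5C2 (0.0107) and IST1 (0.0118). With 2 libraries per group, this measure mostly picks genes of similar fold change. The log2 fold changes of the genes named lay between -3.48 and -2.66 for VEGFD and between -0.27 and -0.25 for VEGFA. Shared regulation was not tested.

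The co-receptors and receptor partners were examined next. Of 8 genes, all were tested, and 2 rose, 5 fell and 1 did not pass, with a median log2 fold change of -0.37 where the median of all tested genes was -0.0010. The neuropilins, which bind VEGF ligands and semaphorins, differed in direction. NRP1 rose from 411 and 423 counts to 942 and 1020, with every shMETTL14 library above the controls (log2 fold change 1.24, SE 0.0782, edgeR adjusted p 1.7e-11). NRP2, the neuropilin that partners FLT4, fell from 3636 and 3364 counts to 2207 and 2134 (log2 fold change -0.68, SE 0.0435, adjusted p 2.3e-11). NRP2 nevertheless remained the more abundant. The ratio of NRP2 to NRP1 in FPKM was 7.81 and 7.02 in shNC and 2.07 and 1.85 in shMETTL14, and their sum came to 30.5 ± 0.539 and 25.4 ± 0.393 FPKM (SD, n = 2 each).

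EFNB2, which encodes ephrin-B2, a membrane ligand known to promote uptake of VEGF receptors, had the largest rise of this list. Its counts went from 262 and 237 to 1005 and 944, a 3.93-fold increase (log2 fold change 1.97, SE 0.0824, adjusted p 2.2e-14). The plexins PLXND1 (log2 fold change -0.70) and PLXNA1 (-0.21), which pair with neuropilins as semaphorin receptors, fell. So did PTPRB (-0.65), a phosphatase that restrains KDR and TIE receptors, and ITGAV (-0.53), the integrin alpha V chain. ITGB3 had between 7 and 14 counts and did not pass the test, and a second annotated coding gene shares 51.6% of its exon bases.

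VEGFC and VEGFD are made as precursors that proteases trim to the active form. Of 10 genes for this processing, 6 could be tested, and 4 rose and 2 fell. ADAMTS3, the main protease of VEGFC, rose from 2344 and 2306 counts to 2880 and 2921 (log2 fold change 0.33, SE 0.0437, adjusted p 1.6e-06). CCBE1, the cofactor that ADAMTS3 needs, had 3 and 5 counts in shNC and 2 in each shMETTL14 library and could not be tested. Of the proprotein convertases, PCSK7 rose (0.64, SE 0.0605, adjusted p 1.2e-08) and so did FURIN (0.40, SE 0.086, adjusted p 4.5e-04), whereas PCSK5 had at most 4 counts. ADAMTS2 and ADAMTS14, relatives of ADAMTS3 that mainly trim procollagens, fell by 1.26 and 1.04 on the log2 scale. CTSD, which encodes the protease cathepsin D, passed narrowly (0.19, adjusted p 0.0484) and failed in most alternatives, including without shNC library 2 (0.15), shMETTL14 library 1 (0.21) or shMETTL14 library 2 (0.19), and another annotated gene shares 41.7% of its exon bases. PLG and KLK3 had at most 2 counts.

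The angiopoietins act on the receptor TEK in a system parallel to VEGF. Of 6 genes, 3 could be tested. ANGPT1, the agonist of TEK, fell from 692 and 663 counts to 125 and 141, leaving 19.8% of the control level (log2 fold change -2.34, SE 0.101, adjusted p 3.4e-14). ANGPTL4, a secreted lipase inhibitor with reported effects on vessels, rose from 10 and 11 counts to 54 and 46 (2.25, SE 0.363, adjusted p 2.0e-05). ANGPT2, the context-dependent antagonist, had 117 and 124 counts against 129 and 84, and did not pass (-0.17, SE 0.183, adjusted p 0.46). TEK had at most 3 counts and TIE1 and ANGPT4 had 0 counts in every library, which allows up to 3 counts per library.

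PDGF receptors and their relatives belong to the same superfamily of receptor kinases as the VEGF receptors. Of 12 genes, 5 could be tested and all 5 fell, with a median log2 fold change of -1.07, where 25.3% of all tested genes fell. PDGFRA fell from 328 and 316 counts to 61 and 85 (-2.13, SE 0.145, adjusted p 6.6e-11), and another annotated coding gene shares 15.8% of its exon bases. KIT, the receptor of stem cell factor, fell from 972 and 949 counts to 327 and 253 (-1.72, SE 0.0907, adjusted p 9.5e-13). CSF1 (-1.07), the stem cell factor gene KITLG (-0.34) and PDGFRB (-0.19) fell as well, PDGFRB not past the threshold without shMETTL14 library 2 (-0.12). The ligands PDGFA, PDGFB and PDGFC had at most 3 counts and PDGFD at most 8.

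Genes that restrain vessel growth changed in both directions. Of 12, 9 could be tested, and 4 rose, 4 fell and 1 did not pass. Those that rose were ADAMTS1 (1.10), VASH1 (0.98), THBS1 (0.89) and VASH2 (0.26). Of these, VASH1 and THBS1 encode vasohibin-1 and thrombospondin-1, secreted inhibitors, while VASH2 is known instead to promote vessel growth and missed the threshold without shMETTL14 library 1 (0.23). SERPINF1, which encodes the inhibitor PEDF, fell from 3222 and 3142 counts to 1198 and 1180 (-1.41, SE 0.0462, adjusted p 3.9e-16). TIMP3, an inhibitor of metalloproteases that also blocks VEGFA binding to KDR, fell from 437 and 419 counts to 119 in each library (-1.84, SE 0.111, adjusted p 9.6e-12). COL18A1, the source of endostatin, and SPARC, a matrix protein that binds VEGFA, fell by 0.81 and 0.51 on the log2 scale. COL18A1 counts were low, at 139 and 100 in shNC and 56 and 79 in shMETTL14. SLC19A1 on the opposite strand shares 16.4% of the exon bases of COL18A1.

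**Figure D4:**
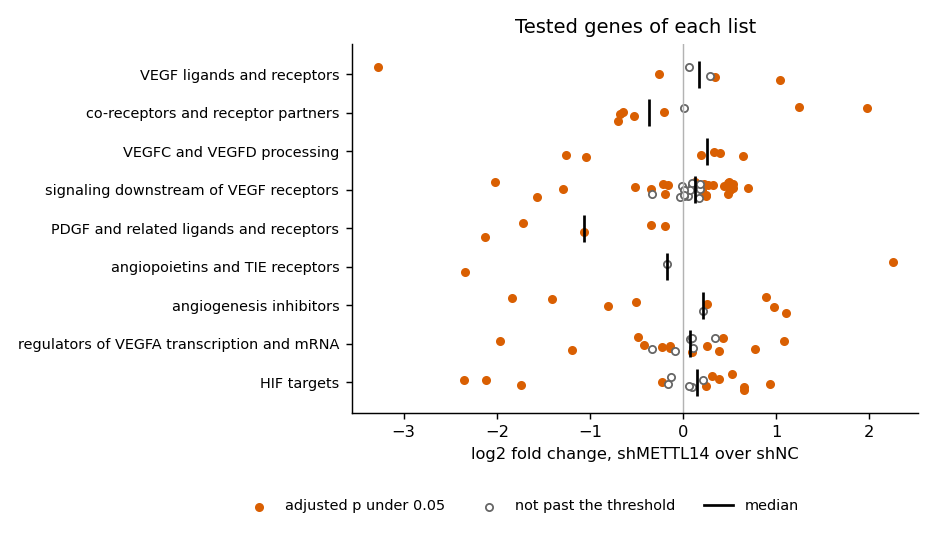
Log2 fold change (shMETTL14 over shNC) of every tested gene in the VEGF group and in 8 neighbouring lists, with 1 point per gene, filled where the edgeR adjusted p was under 0.05, and a black line at the list median. The 5 tested PDGF-related genes all lie below 0, while every other list has genes on both sides.

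Upstream of VEGFA, 19 of 20 regulators could be tested, and 6 rose and 7 fell (68.4% called, median 0.07). HIF1A, the oxygen-regulated factor that drives VEGFA, rose from 6688 and 6581 counts to 8979 and 8727 (log2 fold change 0.43, SE 0.0381, adjusted p 4.9e-09). Its relatives EPAS1 (-0.48, SE 0.159, adjusted p 0.0143) and HIF3A (-1.97, SE 0.349, adjusted p 6.1e-05) fell. EGLN1, a prolyl hydroxylase that marks HIF proteins for decay, rose (0.77, SE 0.166, adjusted p 5.2e-04), and VHL, which then removes them, did not pass (0.09, SE 0.0481, adjusted p 0.14). ARNT, the shared partner of the HIF proteins, passed narrowly (-0.14, adjusted p 0.0459) and missed without either shNC library (-0.14 and -0.13) or without shMETTL14 library 2 (-0.07). EPAS1 missed without shNC library 2 (-0.44) or shMETTL14 library 1 (-0.42). SP1, a factor that binds GC boxes, fell from 8192 and 7687 counts to 3473 and 3434, leaving 43.8% of the control level (-1.19, SE 0.0397, adjusted p 5.0e-16). The RNA-binding proteins ZFP36L1 and ZFP36L2, which promote decay of AU-rich mRNAs such as that of VEGFA, moved apart at -0.42 and 0.38. PPARGC1A rose from a low level (1.08, edgeR adjusted p 0.00531), a call that DESeq2 did not make (1.09, adjusted p 0.0793).

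Targets of HIF proteins, to which VEGFA belongs, were mixed. Of 16 genes, all were tested, and 7 rose and 4 fell (68.8% called, median 0.15). ADM, which encodes the vessel-active peptide adrenomedullin, fell from 424 and 399 counts to 97 and 91 (-2.12, SE 0.119, adjusted p 2.6e-12). NDRG1 fell from 227 and 210 to 61 and 69 (-1.74), and CA9, a carbonic anhydrase, from 61 and 53 to 14 and 8 (-2.35). ARHGEF39 on the opposite strand shares 38.5% of the exon bases of CA9. P4HA1 fell slightly (-0.23), but not past the threshold without shNC library 2 (-0.15). EGLN3 (0.93), PDK1 (0.65), PFKFB3 (0.65) and PGK1 (0.52), of which the last 3 act in glucose metabolism, rose.

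Downstream of the receptors, 41 of 44 signaling genes could be tested, and 18 rose, 8 fell and 15 did not pass (63.4% called, median 0.13). The largest rises were in HRAS (0.70), BAD (0.54), PXN (0.53) and CDC42 (0.50), which encode a RAS protein, a cell death regulator, the focal adhesion protein paxillin and a small GTPase of the cytoskeleton. Other annotated coding genes share 23.7% of the exon bases of BAD and 57.1% of those of CDC42. Among the largest falls were those of SH2D2A (-2.02, from 30 and 48 counts to 7 and 12), the adaptor known to bind activated KDR, of NFATC1 (-1.57, from 109 and 89 to 36 and 30), a calcium-regulated factor, and of the SRC family kinase gene YES1 (-1.29). YES1 missed the threshold without either shNC library (-1.30 and -1.28) or without shMETTL14 library 2 (-1.01).

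Markers of vessel and stromal cells were measured beside these genes. The summed level of the 10 endothelial markers was between 9.61 and 10.6 CPM in shNC and between 14.6 and 16 CPM in shMETTL14, which EMCN (0.87) led while VWF fell (-1.34), a call lost without shNC library 1 (-1.02) or shMETTL14 library 1 (-0.97). Of 3 lymphatic markers, PDPN had 0 counts in all 4 libraries, LYVE1 had at most 3, and only PROX1, which neuroblasts also express, was well detected. PROX1 fell from 3098 and 2896 counts to 1542 and 1677 (log2 fold change -0.89, SE 0.0496, adjusted p 2.6e-12), in the same direction as VEGFD, and its part in that result was not tested. The 6 stromal and pericyte markers summed to between 3750 and 3786 CPM in shNC and between 3989 and 4013 CPM in shMETTL14, mostly from RGS5, and 2 of them rose and 1 fell. The rise of RGS5 (0.09, adjusted p 0.0236) was lost without either shMETTL14 library (0.087 and 0.11).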

How the data were processed

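Total RNA of SK-N-BE(2) cells was sequenced as paired ends. The authors deposited raw read counts per Ensembl gene ID, without normalization, in the layout of htseq-count. The submitters' processing notes name HISAT2 2.1.0, StringTie 1.3.6, HTSeq 0.13.5, edgeR and GRCh38. The annotation release and strand setting are not given in the sources used here, so reads of overlapping genes on opposite strands are uncertain. The 5 lines that name no gene, between 19.1% and 19.9% of a library, were left out.

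Genes passing filterByExpr (minimum count 10, minimum total 15) were tested with the quasi-likelihood F-test of edgeR 4.0.16 in R 4.3.3, with TMM scaling and the group as the only term. Benjamini-Hochberg adjustment covered every gene tested, and genes with an adjusted p under 0.05 were called. Standard errors were derived from the F statistic. CPM is counts per 1000000 after TMM scaling. FPKM is CPM per kilobase of the longest coding transcript of GENCODE 29. All 8 members matched 1 row each by symbol. The alternatives were other scalings and filters, DESeq2 1.42.0, the replicate number as a block, and leaving out each library. Taking length as the union of exons was added after the data were seen.

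Counts were simulated from these libraries with 200 genes changed. The test recovered 58.0% of changes of 0.5 on the log2 scale (6.45% of its calls false, 16211 genes tested). It recovered 80.0% of changes of 1 (3.61% false, 16200 genes) and 95.0% of changes of 2 (7.32% false, 16199 genes). In the data themselves 8561 of 16309 tested genes were called, far more than were changed in the simulation. These rates therefore do not describe recovery or false calls in this contrast. Nothing in the labels says that the 2 libraries of a group came from separate cultures, so p-values measure only the spread between these libraries, which may be technical. An exact two-sided permutation test of 2 against 2 libraries cannot go below 0.333.

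The members and the gene lists were chosen with earlier results of these data known. The genes named were the members, METTL14, genes of lists of 12 or fewer, and up to 4 called genes with the largest change in each direction from longer lists, plus HIF1A, EPAS1, ARNT, EGLN1 and VHL. The markers PROX1, VWF, EMCN and RGS5 were named after their values were seen. Of the genes that the rule names, 1 is not reported here. Genes of like pattern were the 5 closest by root mean square difference. FLT1 and KDR did not pass the filter. Columns of samples outside the labels numbered 0.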

Additional observations from a re-analysis of the deposited data

How the results depend on the processing

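VEGFA, VEGFC, VEGFD, FLT4 and METTL14 kept their direction in all 11 alternative fits. These fits reuse the libraries with which the VEGF genes were chosen, so for those genes they show dependence on processing only. PGF, at 0.34, missed the threshold with upper quartile scaling (0.27) and DESeq2 (0.35), and ranged from 0.23 to 0.45 with 1 library left out. VEGFB, at 0.06, changed sign with upper quartile scaling (-0.0048) and ranged from -0.06 to 0.19 with 1 library left out. The number of tested VEGF genes past the threshold was 3 or 4 throughout. With DESeq2 the count of genes called across the table moved from 8561 to 5538, that of VEGFA regulators from 13 to 8, that of endothelial markers from 2 to 1 and that of stromal markers from 3 to 1. The filter of at least 10 counts per library left 1 stromal call. With 1 library left out, called endothelial markers ranged from 1 to 2 and stromal markers from 1 to 3. The cause was not tested.

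Of 61 other genes, those that changed sign were not called in any of these fits. ITGB3 went to -0.057 (upper quartile), -0.035 (library size alone) and -0.014 (replicate block), and ranged from -0.57 to 0.44 with 1 library left out, as did ANGPT2 from -0.49 to 0.10 and THBS2 from -0.16 to 0.72. A further 10 genes kept their direction but lost their call in at least 1 fit, of which EPAS1, ARNT, CTSD, YES1, VASH2, PPARGC1A, P4HA1 and VWF lost it with DESeq2. Upper quartile scaling shifted all genes by a median of -0.0676 and took the share of higher calls from 51.8% to 41.7%.

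The labels do not say whether same-numbered libraries share more than a number. Their deviations from the group means correlated at -0.0018 (Pearson, across genes). With the replicate block, 8926 genes were called, and VEGFC and VEGFD stood at 1.04 and -3.29.

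Taking length as the union of exons moved the shNC level of VEGFA from 37.8 to 9.27 FPKM and that of PGF from 6.13 to 1.98. Depth limited FLT1 and KDR, with at most 8 counts.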
